A study of Rattus norvegicus with 24 samples.

Results

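Female Sprague Dawley rats were kept without water for 72 hours with food freely given, and the RNA of their supraoptic nucleus was compared on Affymetrix rat arrays with that of euhydrated females. The arrays were taken by their treatment label: 4 arrays of dehydrated females and 4 of control females, 8 of the 24 samples of the series. Each array held a pool of 5 rats, and the labels give no age, cycle stage or array date for the females. A further array labelled as dehydrated (dehydrated array 5) was left out because it lacks the signal of vasopressin and oxytocin, at 50.6 for Avp and 26.0 for Oxt while every other female array read at least 3001. The other groups of the series were 5 arrays each of control and 3-day dehydrated males, used below for comparison, and 5 of lactating rats, whose columns hold no values and which were not analysed here. The arrays of a group may be both biological and technical replicates by the design text. The p-values therefore measure the spread between arrays, and how many arrays of a group are independent is not known.

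The supraoptic nucleus holds magnocellular neurons, which make vasopressin or oxytocin, send axons to the posterior pituitary and release the hormones into the blood. When plasma becomes concentrated these neurons fire more, secrete vasopressin to retain water at the kidney, and replace the hormone lost by making and packaging more of it. The nucleus also holds astrocytes, myelin, vessels and, at its ventral face, the meninges, and a dissected piece carries RNA of all of them. In such bulk tissue, fewer cells of a type and less RNA per cell cannot be told apart.

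Signals were deposited on a linear scale with a trimmed mean of about 100 on each array. Among the 8 arrays, pairs correlated at r = 0.909 to 0.973 over the probe sets tested, and array 5 correlated with them at a median of 0.724. Control array 2 stood apart: its 3' to 5' log2 ratio for the Gapdh control probe sets was 2.04, against 0.03 to 0.07 on the other control arrays and 0.09 to 0.75 on the dehydrated arrays, and its median correlation of 0.923 was the lowest of the 8. The first principal component, with 31.0% of the variance, set that array at -62.0 against -4.60 to 27.0 for the other 7. On the second, with 25.1%, the other 3 controls lay below all dehydrated arrays and control array 2 lay among them. Avp and Oxt are given here only as a description, since array 5 was left out on their values. Avp signal was 3644, 4254, 4014 and 3739 on the control arrays and 4285, 7666, 3834 and 4639 on the dehydrated arrays. Oxt signal was 3001, 3576, 3226 and 3338 on the control arrays and 3835, 6698, 3329.7 and 4096 on the dehydrated arrays. Dehydrated array 2 was the highest for both genes. For each of these genes dehydrated array 3 lay within the control range, so the groups overlapped.

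The response was tested with limma on log2 values over 21729 probe sets, and a probe set is called below where the Benjamini-Hochberg adjusted p was under 0.05. Dehydrated and control females differed in 643 probe sets (2.96% of those tested). Dehydration raised 384 probe sets (1.77%) and lowered 259 (1.19%). A single gene symbol was given to 301 of the rises, for 285 genes, and to 206 of the falls, for 202 genes. Of the 643 probe sets, 94 rises (0.433%) and 27 falls (0.124%) were larger than 2-fold. The median log2 fold change was 0.72 among the rises, -0.68 among the falls and -0.03 over all probe sets tested. All 4 dehydrated arrays lay above all 4 controls in 380 of the 384 rises and below them in 255 of the 259 falls, while 5.31% of all probe sets tested lay wholly above and 7.03% wholly below. The median rise of the 94 probe sets over the control mean was 1.28, 1.27, 1.24 and 1.34 (log2) on dehydrated arrays 1 to 4. The 27 falls moved by -1.22, -1.27, -0.97 and -1.19 on them. On array 5 the same medians were 0.08 and 0.43. The probe sets were picked on arrays 1 to 4 and the controls, for large differences with little spread. Likeness among arrays 1 to 4 is therefore built in. Array 5 took no part in the picking, so its contrast with them is partly built in too. These medians are descriptions.

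**Figure D1:**
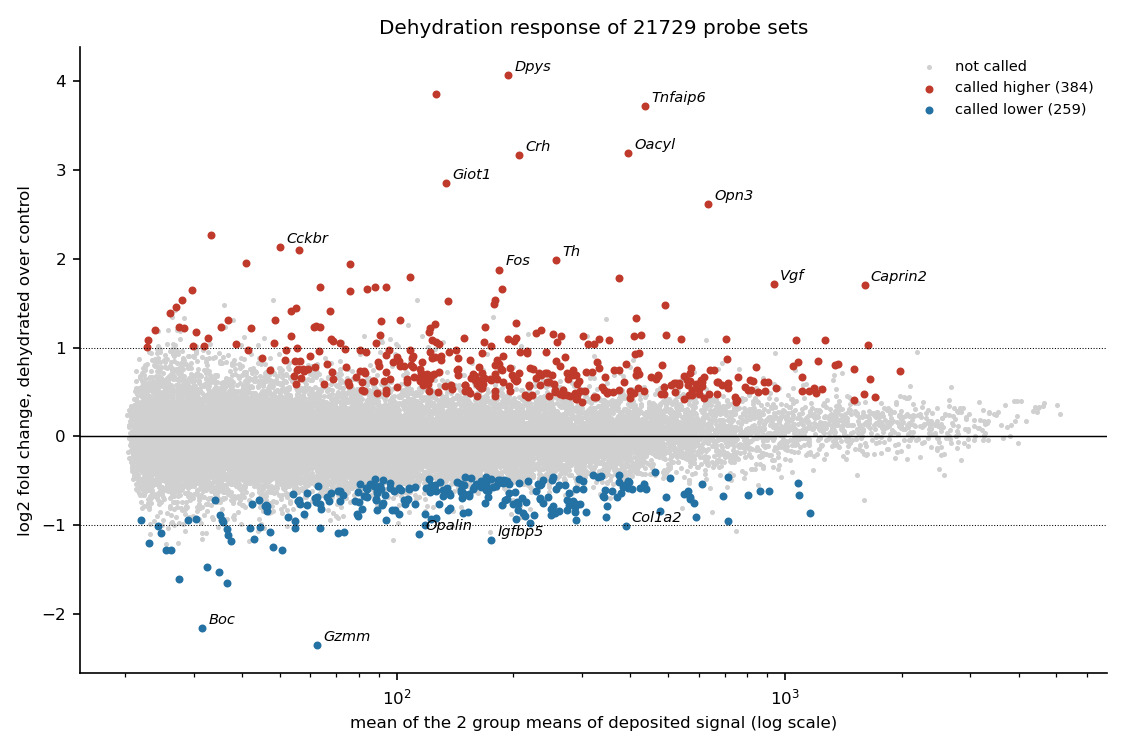
Log2 fold change of dehydrated over control females (4 arrays each) against the mean of the group means of deposited signal, on a log axis, for 21729 probe sets. Red points are the 384 rises and blue points the 259 falls called by limma at an adjusted p under 0.05, and dotted lines mark 2-fold; the rises reach 4.06 (Dpys) and the falls -2.35 (Gzmm). Dpys and Gzmm passed the filter on mean level only through the group where each is high.

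With the arrays centred on their median instead, 348 rose and 114 fell, so that rises were 75.3% of the calls against 59.7%. The counts depended on single arrays. Leaving out 1 array at a time gave 152 (without dehydrated array 1) to 457 (without control array 2) rises, and 51 (without control array 3) to 429 (without control array 2) falls. Of the probe sets called with all 8 arrays, 130 rises and 36 falls were called in each of the 8 fits that left out 1 array, among them 65 of the 94 rises and 10 of the 27 falls over 2-fold. With array 5 added, 1 rise and no fall passed limma's test, while 1785 probe sets had an unadjusted p under 0.05; with the 8 arrays that number was 4118. For a gene named below as holding, each of those 8 fits called it.

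The 3 largest rises were in an enzyme, a matrix protein and a transferase, none of them a neuropeptide. Dpys, dihydropyrimidinase, takes part in the breakdown of uracil and thymine. Its signal was 13.4, 24.6, 23.1 and 6.04 on the control arrays and 377, 395, 223 and 490.2 on the dehydrated arrays, a log2 fold change of 4.06 ± 0.29 (± SE of the fit, here and below; adjusted p = 2.34e-05). All fold changes are on the scale of log2 signal plus an offset, which understates those of genes with low control signal such as this one. Dpys passed the filter on mean level only through its dehydrated arrays, so its rise and p are given as a description. Tnfaip6, a secreted protein that binds hyaluronan and remodels its matrix, read 44.6, 61.4, 61.4 and 56.4 on the control arrays and 829.7, 812, 670.1 and 958 on the dehydrated arrays, a log2 fold change of 3.72 ± 0.14 (adjusted p = 4.68e-08). A second, dimmer Tnfaip6 probe set rose by 3.86 ± 0.29. It passed the filter in the same way as Dpys, so its rise is also a description. Oacyl, an acyltransferase-like membrane protein, read 87.0, 46.2, 70.6 and 88.9 on the control arrays and 823, 844, 709.7 and 488 on the dehydrated arrays (3.19 ± 0.21, adjusted p = 1.16e-05). For all 3 genes the lowest dehydrated array was several times the highest control array, and all 3 held. On array 5 they read 2.57 (Dpys), 43.0 (Tnfaip6, first probe set) and 63.1 (Oacyl), none of them above the control range.

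Next in size came Crh, Giot1 and Opn3. Crh encodes corticotropin-releasing hormone, the peptide that drives pituitary ACTH. It read 36.0, 40.6, 37.6 and 31.7 on the control arrays and 414, 347, 392 and 358 on the dehydrated arrays, with groups far apart and little spread within each (log2 fold change 3.16 ± 0.12, adjusted p = 4.68e-08). Array 5 read 172 for Crh, between the groups. Giot1, a zinc finger transcription factor first described in the gonads, read 29.3, 40.0, 22.5 and 20.7 on the control arrays and 299.7, 199, 215 and 245 on the dehydrated arrays (2.85 ± 0.19). Opn3, an opsin expressed in brain, read 173, 140.3, 228 and 159 on the control arrays and 1015, 1004, 1011 and 1352 on the dehydrated arrays (2.61 ± 0.15). Array 4 was the highest dehydrated pool for Opn3 and the other 3 lay within a narrow band. These 3 genes held as well.

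**Figure D2:**
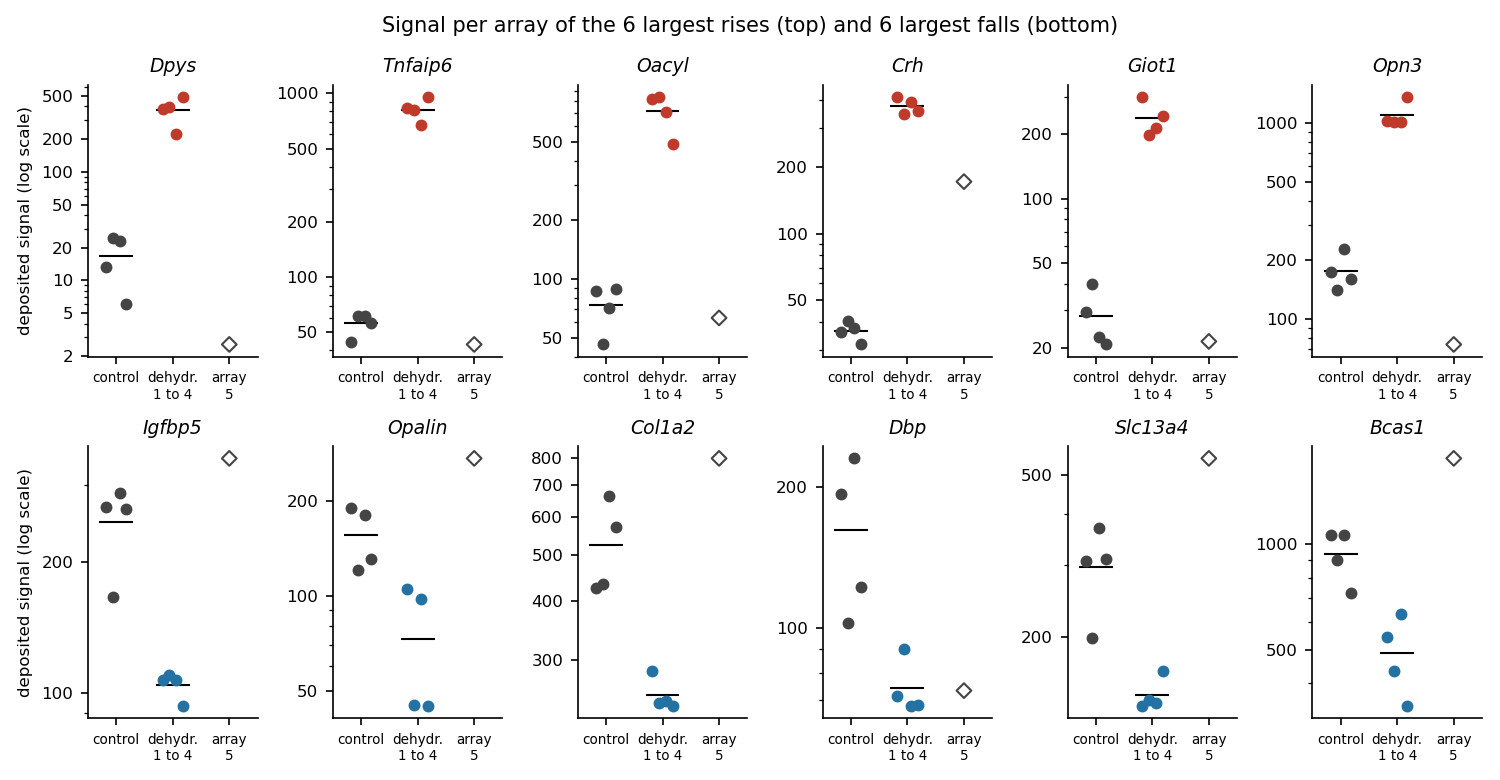
Deposited signal (log axis) of the 6 largest rises and 6 largest falls by the naming rule, 1 point per array: control arrays 1 to 4 (dark), dehydrated arrays 1 to 4 (red or blue) and the left-out dehydrated array 5 (open diamond). Bars are means of 4 arrays. The groups do not overlap in any of the 12 genes, which follows largely from picking the largest called changes. Of all probe sets tested, 5.31% had dehydrated arrays wholly above the controls and 7.03% wholly below. Array 5 lies within or below the control range for 5 of the 6 rises and above it for 5 of the 6 falls.

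The lists below count 1 probe set per gene. Of all 11412 named genes so counted, 254 (2.23%) rose and 178 (1.56%) fell. Above 0 were 5183 of them and below 0 were 6229. Each list is to be set beside these shares, though lists and members were chosen with earlier results of these data known. Of 24 genes tested in the list of magnocellular peptides and co-transmitters, 5 rose (20.8%) and none fell, with a median log2 fold change of 0.13. Besides Crh these were Vgf, Scg2, Ucn and Pdyn. Vgf, a granin-family precursor of secreted peptides, read 439.9, 589, 374 and 349 on the control arrays and 1409, 1214, 1292 and 1837 on the dehydrated arrays (1.71 ± 0.17, adjusted p = 0.000529). Scg2, the granin secretogranin II, read 886, 631, 887 and 843 on the control arrays and 1649.6, 1922, 1626 and 1690.3 on the dehydrated arrays (1.09 ± 0.13, adjusted p = 0.00143). Pdyn, the dynorphin precursor that vasopressin cells package with their hormone, read 1330.2, 1637, 1466 and 1483 on the control arrays and 2269, 2772, 2294 and 2578 on the dehydrated arrays (0.74 ± 0.12, adjusted p = 0.00753). Every dehydrated array was above every control for these 3 genes, and all 3 held. Ucn, the CRH-related peptide urocortin, rose by 0.76 ± 0.17 with an adjusted p of 0.0419, which reached 0.12 when an array was left out. Members that did not pass included Cck (0.58), Gal (0.09), Penk (-0.22) and Npy (-0.55). Here and below, members given as not passing, other than the smallest p of a list, were named for their known roles after their values were seen.

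Among 33 genes of dense core granules and prohormone processing, the same Vgf and Scg2 were the 2 that rose, and none fell. The list's median was 0.24, and 25 of the 33 were above 0. The convertase Pcsk2 (0.36), the amidating enzyme Pam (0.44) and the granule protein Scg3 (0.35) did not pass, and Chga (0.03) and Chgb (-0.29) lay near or below 0.

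Of 22 immediate early transcription factors tested, 4 rose (Fos, Fosl1, Nr4a1 and Csrnp1) and none fell; the list's median was 0.45, and 17 members were above 0. Fos, the standard marker of neuronal activation, read 101, 81.4, 61.6 and 54.6 on the control arrays and 301, 233, 222 and 417 on the dehydrated arrays (1.88 ± 0.22, adjusted p = 0.0012). A second Fos probe set, of low signal, gave -0.56 and did not pass (adjusted p = 0.238). Fosl1, which pairs with Jun proteins as Fos does, read 34.8, 16.6, 24.0 and 34.0 on the control arrays and 93.9, 82.9, 80.0 and 75.8 on the dehydrated arrays (1.44 ± 0.20). Nr4a1, an orphan nuclear receptor induced by calcium and cAMP, read 57.6, 58.9, 58.5 and 44.5 on the control arrays and 99.3, 99.6, 121 and 127 on the dehydrated arrays (0.95 ± 0.14). Fos, Fosl1 and Nr4a1 held, whereas Csrnp1 (0.75 ± 0.18, adjusted p = 0.0471) reached 0.13 when an array was left out. Egr1 (0.62), Jun (0.49) and Jund (0.63) did not pass.

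Of 14 genes in the list of secretory pathway transcription factors and regulators, 5 rose and none fell. Caprin2 and Rasd1, which are among those that rose, are not transcription factors. The list was chosen with earlier results of these data known, so its count is a description. Caprin2, an RNA-binding protein, read 686, 812, 799 and 701 on the control arrays and 2228, 2719.8, 2332 and 2559 on the dehydrated arrays (1.71 ± 0.11, adjusted p = 1.16e-05). Rasd1, a Ras-like G protein inducible by steroids and cAMP, read 255, 255, 255 and 261 on the control arrays and 709.9, 707, 734 and 757 on the dehydrated arrays (1.48 ± 0.09, adjusted p = 7.05e-06), with very little spread in either group. Creb3l1, a membrane-bound transcription factor of the CREB family released by cleavage in the Golgi, read 62.3, 58.1, 53.8 and 49.2 on the control arrays and 128, 133, 158 and 174 on the dehydrated arrays (1.31 ± 0.14). Its relative Creb3 rose by 0.64 ± 0.12 (adjusted p = 0.0153), and lost the call without control array 3 or dehydrated array 1 (highest adjusted p = 0.0621). Crem, a cAMP-responsive modulator, rose by 0.71 ± 0.12 at its most abundant probe set, and a second of its 5 probe sets passed at 0.86. Caprin2, Rasd1, Creb3l1 and Crem held. The unfolded protein response factors Atf6 (-0.05) and Xbp1 (0.01) did not pass.

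Of 23 activity-regulated effectors tested, 4 rose (Tnfaip6, Vgf, Cdkn1a and Plk2) and 2 fell (Rgs4 and Rgs2). Plk2, a kinase of synaptic scaling, read 112, 114, 138 and 149 on the control arrays and 236, 224, 262 and 221 on the dehydrated arrays (0.86 ± 0.12). Rgs2, which shortens signalling by Gq-coupled receptors, read 322, 319.9, 301 and 308 on the control arrays and 213, 196, 221 and 217 on the dehydrated arrays (-0.55 ± 0.09). Both held and their groups did not overlap. Among 13 MAP kinase phosphatases and feedback inhibitors, Dusp6 and Spry2 rose and none fell. Dusp6, the phosphatase that switches ERK off, rose by 1.10 ± 0.18, and a second probe set rose by 1.68 ± 0.26; both held. Spry2 rose by 1.10 ± 0.21 (adjusted p = 0.0167), and lost the call in 3 of the 8 fits, without control array 3 (highest adjusted p = 0.0652), dehydrated array 1 or dehydrated array 2.

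Several of these risers carry the cAMP response element in the promoter, and 5 of these promoters are shown to set the same letters beside the values. The palindrome TGACGTCA was searched on both strands of the 250 bases before the start of each gene, in RefSeq promoters of build GRCr8. It was found in 16 of the 231 risers with a promoter (6.93%), in 1 of 166 fallers (0.602%), in 2.99% of the 9535 tested genes matched and in 1.78% of all genes with a promoter. Among risers over 2-fold it was in 6 of 56 (10.7%). A match is a description of letters and not a site shown to be used. The stretches run 5′ to 3′ up to the base before the start, with the element in capitals.
Th (chr1:207508219-207508328, minus strand): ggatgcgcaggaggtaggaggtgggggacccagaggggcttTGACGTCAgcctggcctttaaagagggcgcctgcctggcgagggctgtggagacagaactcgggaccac
Vgf (chr12:25277021-25277130, minus strand): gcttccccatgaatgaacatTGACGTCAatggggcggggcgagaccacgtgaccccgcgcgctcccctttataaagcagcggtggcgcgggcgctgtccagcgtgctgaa
Scg2 (chr9:88256867-88257006, minus strand): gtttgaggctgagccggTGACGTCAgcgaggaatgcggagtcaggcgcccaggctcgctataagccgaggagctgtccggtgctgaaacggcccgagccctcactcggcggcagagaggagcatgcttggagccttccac
Crem (chr17:58984707-58984796, plus strand): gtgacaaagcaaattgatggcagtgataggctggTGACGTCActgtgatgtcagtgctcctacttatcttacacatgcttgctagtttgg
Plk2 (chr2:43702446-43702535, plus strand): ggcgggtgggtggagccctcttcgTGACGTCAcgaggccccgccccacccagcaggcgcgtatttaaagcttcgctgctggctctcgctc
The element starts 69 (Th), 90 (Vgf), 123 (Scg2), 56 (Crem) and 66 (Plk2) bases before the start. The AP-1 letters TGANTCA, bound by Fos and Jun proteins, were in 6.93% of risers, 2.41% of fallers and 5.02% of tested genes. The E-box CACGTG was in 9.96%, 6.63% and 8.69%.

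Atf4, the transcription factor of the amino acid and stress response, read 804, 439.9, 731 and 801 on the control arrays and 1537, 1533, 1346 and 1362 on the dehydrated arrays (1.09 ± 0.18, adjusted p = 0.00863), and control array 2 was the lowest of the 8. Of 17 genes of the ATF4 response and stress regulators 3 rose and none fell, with a median of 0.27. Chac1, which degrades glutathione, read 139, 160.4, 148 and 171 on the control arrays and 250.3, 272, 251 and 258 on the dehydrated arrays (0.72 ± 0.10). Ddit3 (CHOP) rose by 0.70 ± 0.16 (adjusted p = 0.04; up to 0.116 with an array left out). Of 19 genes of serine, folate, proline and asparagine synthesis 3 rose and none fell: Mthfd2, of mitochondrial folate metabolism (1.63 ± 0.25), Asns, asparagine synthetase (0.80 ± 0.13), and Psph, of serine synthesis (0.79 ± 0.14). Asns read 174, 210.2, 172 and 206 on the control arrays and 331, 309, 409.8 and 297 on the dehydrated arrays, with no overlap. Atf4, Chac1, Mthfd2, Asns and Psph held.

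Among 21 aminoacyl-tRNA synthetases and their scaffold proteins, which load amino acids onto tRNA, 6 rose and none fell, and 18 were above 0, with a median of 0.34. Cars1, for cysteine, read 169, 191, 196 and 172 on the control arrays and 332, 317, 375 and 308 on the dehydrated arrays (0.85 ± 0.11, adjusted p = 0.00215). The others were Tars1 (0.59), Sars1 (0.57), Aars1 (0.53), Rars1 (0.46) and Eprs1 (0.44). Only Cars1 held: a single synthetase was called without control array 3, dehydrated array 1 or dehydrated array 2. Of 24 amino acid transporters Slc7a1, the arginine and lysine transporter, rose by 0.72 ± 0.10 and held, and Slc1a4, a neutral amino acid carrier, rose by 0.63 ± 0.13 without holding (highest adjusted p = 0.0885). None of the 24 fell, and their median was 0.02.

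The composite element bound by ATF4 dimers, TGATGNAA on either strand, was in 10 of 231 risers (4.33%), 2 of 166 fallers (1.2%), 1.99% of tested genes and 3.58% of all genes with a promoter. It is shown, in capitals, for Chac1, Aars1, Slc7a1 and Tars1, to set it beside their values; of the risers in these lists, Slc1a4 also holds it.
Chac1 (chr3:126795951-126796130, plus strand): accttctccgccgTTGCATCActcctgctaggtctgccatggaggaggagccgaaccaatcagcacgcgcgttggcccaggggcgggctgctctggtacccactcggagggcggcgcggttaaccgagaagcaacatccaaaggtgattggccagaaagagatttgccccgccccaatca
Aars1 (chr19:55908352-55908481, plus strand): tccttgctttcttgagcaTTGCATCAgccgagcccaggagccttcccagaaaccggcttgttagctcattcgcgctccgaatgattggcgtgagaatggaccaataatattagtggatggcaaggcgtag
Slc7a1 (chr12:11664428-11664487, plus strand): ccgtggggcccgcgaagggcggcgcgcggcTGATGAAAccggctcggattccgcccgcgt
Tars1 (chr2:62114803-62114862, minus strand): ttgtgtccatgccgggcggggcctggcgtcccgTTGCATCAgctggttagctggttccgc
In Chac1, Aars1 and Tars1 the capitals are the reverse complement of the searched letters.

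Of the ribosomal proteins none of 36 was called in either direction (limma), none had an unadjusted p under 0.05, and the median was 0.00. Lists count the most abundant probe set of each gene, and by that count 1 of 29 translation factors fell, Eif4b (-0.58 ± 0.10, adjusted p = 0.0139; up to 0.063 with an array left out), and none rose. Other probe sets of 2 members were called higher: 1 of Eif4g1 (1.65, with its other 2 at -0.37 and -0.33 and not called) and 3 of Eif1a (0.91, 0.72 and 0.69, with the most abundant at 0.13 and not called). Of 35 ER chaperones and unfolded protein response genes 3 rose and none fell: Dnajc3 (0.63 ± 0.11), Nucb1 (0.60 ± 0.11) and Pdia6 (0.41 ± 0.10). The chaperone Hspa5 (BiP) was at 0.43 and did not pass. Without control array 3 or dehydrated array 2, 1 of the 35 passed. Of 53 genes of ER translocation and ER to Golgi traffic 1 rose: Tmed10, a cargo receptor, which read 491, 445, 460.4 and 494 on the control arrays and 739, 732, 675 and 821 on the dehydrated arrays (0.64 ± 0.10) and held. That riser is 1.89% of the list, near the 2.23% of all named genes called higher. In that list 43 of 53 were above 0, with a median of 0.14, while 5183 of all 11412 named genes were above 0. The vacuolar proton pump, which acidifies granules, had 1 riser of 18, Atp6v1h (0.47 ± 0.10, adjusted p = 0.029; up to 0.103 with an array left out), and 16 members above 0; none was called under quantile normalization. Vma21, an assembly factor of this pump that is in no list and was picked after its values were seen, rose at all 3 of its probe sets (0.96, 0.98 and 0.64), the first 2 of which held. Ap1s2, a clathrin adaptor subunit picked in the same way, rose at both of its probe sets tested (0.82 and 0.76), and so did the lysosomal protease Ctsl (0.85 and 0.73).

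**Figure D3:**
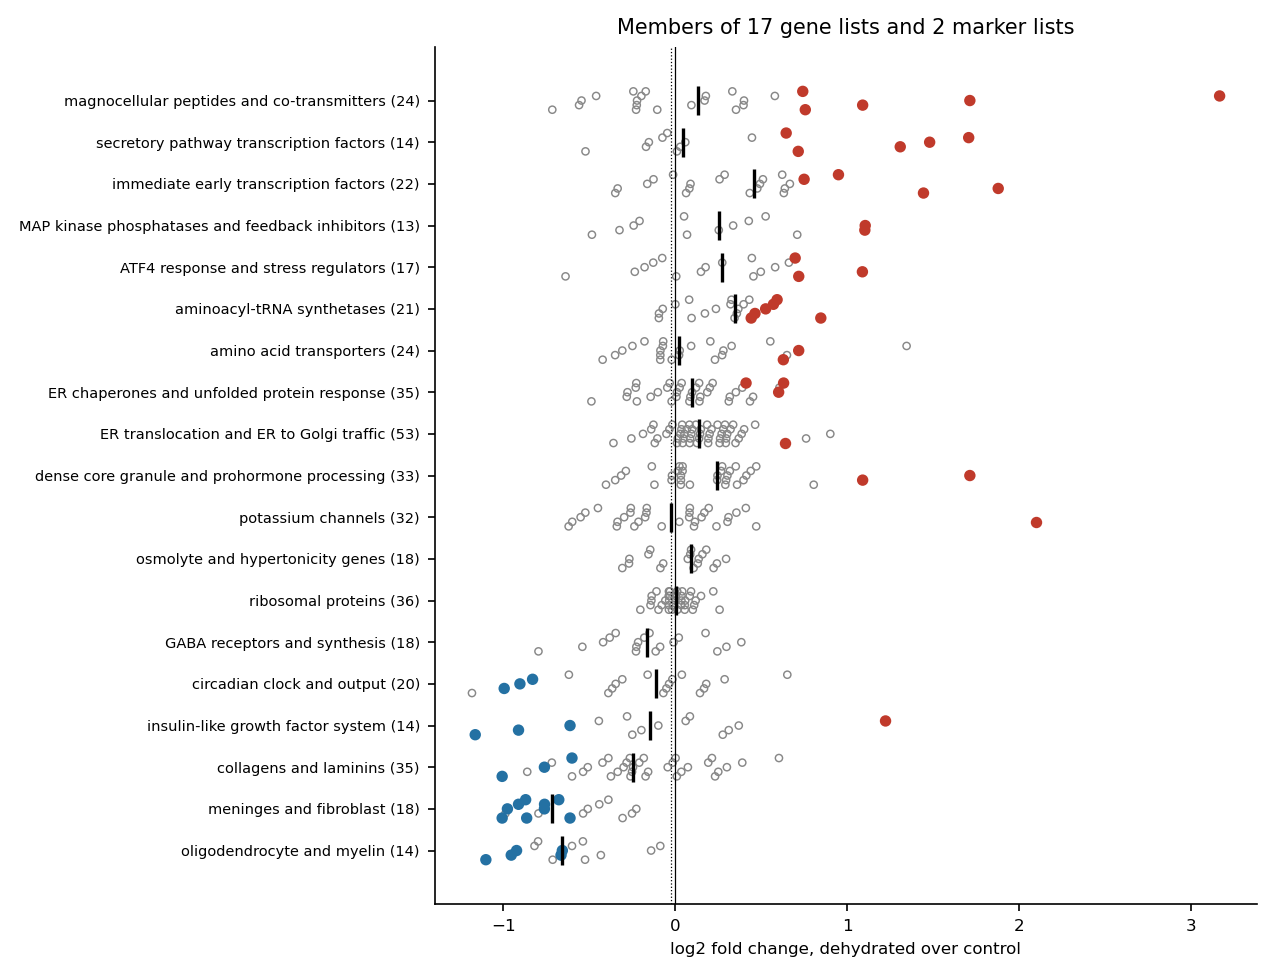
Log2 fold change of each tested member of 17 gene lists and 2 cell type marker lists (number tested in brackets), 1 probe set per gene. Filled points were called higher (red) or lower (blue), open points were not called, thick bars are list medians and the dotted line is the median of all probe sets tested (-0.03). All called members of the first 11 lists lie to the right, and all called members of the 2 marker lists drawn lie to the left. The lists drawn and their order are a selection from 36 gene lists and 13 marker lists, so this pattern depends on the choice. Among lists not drawn, activity-regulated effectors had 4 members called higher and 2 lower, and magnocellular markers had 4 called higher and none lower.

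Th, tyrosine hydroxylase, the first step of catecholamine synthesis, read 127, 80.9, 98.3 and 96.8 on the control arrays and 402, 436, 461 and 359 on the dehydrated arrays (1.98 ± 0.14, adjusted p = 1.82e-05), and held. At the most abundant probe set of each gene it was the 1 of 9 called in its list, and the next enzyme, Ddc, was at -0.43. Slc18a2, the vesicular monoamine transporter, was at 0.49 at that probe set (adjusted p = 0.0931), and another of its 3 was called higher at 1.09 (adjusted p = 0.0365), without holding. Of 35 glycolysis, lactate and hypoxia genes 1 rose and 1 fell, 2.9% each, against 2.23% and 1.56% of all named genes. Ldha, lactate dehydrogenase, rose by 0.80 ± 0.14, and lost the call without dehydrated array 2 (adjusted p = 0.0518). The phosphofructokinase Pfkm fell by 0.46 on the log2 scale (adjusted p = 0.0461; up to 0.143 with an array left out). None of 53 respiratory chain genes was called by limma, and an unadjusted p under 0.05 was reached by 2 upward and 1 downward. As in the ER to Golgi list, 43 of these 53 were above 0, with a median of 0.13. Of the proteasome genes, 34 of 39 were above 0. An upward lean is thus not particular to the secretory lists. Of 32 cholesterol and fatty acid genes 1 rose, Acat2 (0.52), of 39 proteasome genes 1 rose, Psmd6 (0.51), and of 35 heat shock and oxidative stress genes 2 rose, Sod2 (0.67) and Hspb8 (0.49). None of these 4 held. The shares called higher were 3.1% (cholesterol and fatty acid), 2.6% (proteasome) and 5.7% (heat shock and oxidative stress), against 2.23% of all named genes. Beside Dpys the pyrimidine list had Upp1, uridine phosphorylase (0.64 ± 0.15, adjusted p = 0.0417; up to 0.114 with an array left out), among 17 tested.

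Of 32 potassium channel genes Kcnn3 alone was called, the small-conductance calcium-activated channel of the afterhyperpolarization. It read 2.20, 28.4, 15.8 and 31.4 on the control arrays and 110.3, 76.0, 62.6 and 121 on the dehydrated arrays (2.10 ± 0.40, adjusted p = 0.0196), and lost the call without control array 3 or dehydrated arrays 1, 2 or 4 (highest adjusted p = 0.0683). Kcnn3 passed the filter on mean level only through the dehydrated arrays, so its rise is a description. The share called higher in this list was 3.1%, near the 2.23% of all named genes. Of 27 sodium, calcium and osmosensing channel genes and calcium buffers, Calb2 and Trpc4 rose and none fell. Calb2, the calcium buffer calretinin, read 547, 447, 532 and 478 on the control arrays and 878, 1044, 862 and 908 on the dehydrated arrays (0.87 ± 0.11) and held. Trpc4, a cation channel, rose by 0.90 ± 0.17 (adjusted p = 0.0203; up to 0.0787 with an array left out). Of 21 chloride cotransporter and sodium pump genes 2 rose. Slc12a1, the sodium, potassium and chloride cotransporter known from the kidney, read 34.4, 21.7, 22.1 and 31.6 on the control arrays and 126, 90.7, 154 and 126 on the dehydrated arrays (1.94 ± 0.19, adjusted p = 0.000393) and held. Fxyd5, a sodium pump modulator, rose by 1.06 ± 0.20 and lost the call without control array 3 (highest adjusted p = 0.0593) or dehydrated array 1.

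Osmolyte and hypertonicity genes, which cells use to balance concentrated surroundings, were not called: 0 of 18 by limma, with 1 higher at an unadjusted p under 0.05. The smallest p was that of the chaperone gene Hspa4l (0.30 ± 0.12, adjusted p = 0.203). The list held Nfat5 (0.14), the master regulator of that response, and the transporters Slc5a3 (-0.31) and Slc6a6 (-0.07).

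Of 28 receptors for peptides, cytokines and steroids 2 rose: Cckbr, a cholecystokinin receptor, read 11.3, 19.4, 26.7 and 5.19 on the control arrays and 96.6, 91.9, 87.2 and 62.5 on the dehydrated arrays (2.14 ± 0.29), and Mc4r, the melanocortin receptor, read 38.7, 27.0, 40.9 and 30.3 on the control arrays and 90.8, 91.4, 79.5 and 91.5 on the dehydrated arrays (1.23 ± 0.15). Both held. Sctr, the secretin receptor, which is in no list but among the largest rises at low level, read 10.1, 16.5, 17.6 and 8.49 on the control arrays and 89.6, 57.3, 63.3 and 64.4 on the dehydrated arrays (1.95 ± 0.22) and held. Cckbr and Sctr passed the filter on mean level only through the dehydrated arrays, so their rises are descriptions. Plaur, the urokinase receptor, rose by 2.27 ± 0.33 from signals of 6.69, 3.52, 16.5 and 3.18; it was called in 5 of the 8 fits and was too dim to be tested in the other 3, so that it passed the filter through the dehydrated arrays and its rise is a description. Its probes can match several transcripts. GABA receptor and synthesis genes had no call among 18 by limma (unadjusted p under 0.05 for 0 upward and 4 downward; median -0.17), the smallest p being that of the vesicular transporter Slc32a1 (-0.42 ± 0.11, adjusted p = 0.067). Of 26 glutamate receptor genes Grm3 fell (-0.73 ± 0.17, adjusted p = 0.0456), and lost the call whichever array was left out (up to 0.117). Among 46 cyclic nucleotide and calcium signalling enzymes limma called none, and an unadjusted p under 0.05 was reached by 5 upward and 6 downward.

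The next genes are in no list and were picked one by one after their values were seen. Procr, the protein C receptor, rose by 1.68 ± 0.20 (mean signal 38.6 to 137), F2r, the thrombin receptor, by 1.14 ± 0.12 (306 to 683), Icam2 by 1.19 ± 0.15 (142 to 330.1) and Cd55 by 0.81 ± 0.12 (281 to 498). A second Cd55 probe set did not pass (1.13, adjusted p = 0.198). Other risers picked in this way were Ptges, which makes prostaglandin E (1.65 and 0.73 at its probe sets), and the growth factor Fgf9 (1.17 and 1.16).

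Of 45 cytoskeleton and axonal transport genes 3 rose and none fell. Prph, the intermediate filament peripherin, read 95.8, 105, 117 and 106 on the control arrays and 222, 268, 231 and 198 on the dehydrated arrays (1.07 ± 0.12) and held. Kif5c, a kinesin heavy chain, read 228, 200.4, 179.7 and 228 on the control arrays and 385, 478, 416 and 462 on the dehydrated arrays (1.04 ± 0.12) and held, and Tubb6, a beta tubulin, rose by 0.76 ± 0.15 (adjusted p = 0.0237; up to 0.0744 with an array left out). The receptor kinase Alk read 99.8, 93.4, 93.3 and 74.5 on the control arrays and 275, 255, 232 and 302 on the dehydrated arrays (1.49 ± 0.13) and held. Tnfaip6 was the 1 gene called of 27 in the hyaluronan, lectican and perineuronal matrix list, whose median was -0.17. Rnf138l1, also among the 15 largest rises, read 93.3, 90.6, 71.2 and 84.8 on the control arrays and 215, 339, 221 and 380.2 on the dehydrated arrays (1.65 ± 0.18).

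Of 20 clock and clock output genes 3 fell and none rose. Dbp, the output factor driven by the clock, read 193, 102, 230.0 and 122 on the control arrays and 71.4, 90.1, 68.1 and 68.5 on the dehydrated arrays (-0.99 ± 0.22, adjusted p = 0.0365). The transcriptional repressors Bhlhe41 and Nr1d2 fell by 0.90 ± 0.16 and 0.83 ± 0.15 on the log2 scale. Bhlhe41 read 443, 507, 519 and 344 on the control arrays and 248, 205, 202 and 303 on the dehydrated arrays, with no overlap. Without control array 3 none of the 20 was called, and the adjusted p of Dbp reached 0.104 over the 8 fits. Hlf, a relative of Dbp, was at -0.37 at its most abundant probe set (adjusted p = 0.118), and 2 other probe sets of it were called (-0.52 and -0.73). The core genes Clock (-0.16), Bmal1 (-0.02) and Per2 (0.17) did not pass. The labels give no time of day.

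Of 19 glucocorticoid target genes 3 fell and 1 rose. Tsc22d3 (GILZ) fell by 0.53 ± 0.11, the gap junction gene Gjb6 by 0.76 ± 0.16 and the cell cycle inhibitor Cdkn1c by 0.93 ± 0.21, all on the log2 scale, while Cdkn1a rose by 0.96 ± 0.20. Cdkn1c read 232, 328, 280.2 and 221 on the control arrays and 141, 109, 99.9 and 211 on the dehydrated arrays. None of the 4 held, and no fall was called with the arrays centred on their median or without control array 1, 3 or 4.

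In the insulin-like growth factor system, 3 of 14 genes fell and 1 rose. Igfbp5, which binds the growth factors and the matrix, read 268, 166, 288 and 265 on the control arrays and 107, 110.1, 107 and 93.4 on the dehydrated arrays (-1.16 ± 0.16, adjusted p = 0.00386); a second probe set gave -0.59 and did not pass. Igfbp2 read 655, 530.2, 1059 and 877 on the control arrays and 437, 424, 325 and 417 on the dehydrated arrays (-0.91 ± 0.19), and Igf2 fell by 0.61 ± 0.13. Igfbp3 went the other way and read 79.0, 64.4, 61.1 and 75.4 on the control arrays and 219, 142, 144 and 192 on the dehydrated arrays (1.22 ± 0.16). Igfbp5 and Igfbp3 held, Igf2 was called in 3 and Igfbp2 in 1 of the 8 fits. Igf2 and Igfbp2 are also in the list of meningeal markers described next.

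The falls held many genes of the meninges and of myelin. Of 18 markers of meninges and fibroblasts 9 fell and none rose, all 18 were below 0, and the median was -0.72. Col1a2, a chain of type I collagen, read 426, 434, 665 and 572 on the control arrays and 285, 244, 246 and 240.2 on the dehydrated arrays (-1.01 ± 0.15, adjusted p = 0.00492), and a second probe set also fell (-0.71). Slc13a4, a sulfate transporter, read 307, 199, 370.2 and 309.7 on the control arrays and 135, 139.7, 138 and 165 on the dehydrated arrays (-0.98 ± 0.17). The others were Fmod (-0.87), Crabp2 (-0.86), Igfbp2, Efemp1 (-0.76), Aldh1a2 (-0.76), Ogn (-0.68) and Igf2. Dehydrated array 4 lay within the control range for Efemp1 and Crabp2. The mean log2 value of the list lay between 9.92 and 10.37 in controls and between 9.33 and 9.64 in dehydrated pools. Col1a2 and Slc13a4 held; 2 of the 18 were called without control array 3 or dehydrated array 2, 11 without control array 2, and 4 with the arrays centred on their median. Of 35 collagens and laminins 3 fell (Col1a2, Efemp1 and Lamb2, the last at -0.60) and none rose, with a median of -0.25; 1 to 2 fell when an array was left out.

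Markers of oligodendrocytes and their myelin had 5 falls and no rise among 14, all were below 0, and the median was -0.66. Mag, a glycoprotein of the inner myelin layer, read 179, 179, 198 and 117 on the control arrays and 86.5, 80.7, 86.7 and 82.8 on the dehydrated arrays (-0.92 ± 0.15, adjusted p = 0.0105) and held. Opalin read 190.4, 121, 181 and 131 on the control arrays and 105, 45.0, 98.0 and 44.7 on the dehydrated arrays (-1.10 ± 0.27, adjusted p = 0.0493), and Bcas1, of early myelinating cells, read 1063, 904, 1061 and 727 on the control arrays and 542, 433, 634 and 345 on the dehydrated arrays (-0.95 ± 0.18). Cldn11 (-0.66) and Cnp (-0.66) also fell. Dehydrated arrays 2 and 4 were the lowest for Opalin and Bcas1. The list's mean log2 value lay between 10.44 and 10.92 in controls and between 9.65 and 10.34 in dehydrated pools; 1 of the 14 was called without control array 1, control array 3 or dehydrated array 2, 8 without control array 2, and 2 with the arrays centred on their median. S1pr5, a sphingosine receptor of oligodendrocytes, fell by 1.28 ± 0.22 at low signal and held. Of 6 precursor markers 1 fell, Olig1 (-0.68), and did not hold.

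Over the 15 array measures compared (13 marker lists and the 3' to 5' ratios of Gapdh and beta-actin), an exact permutation test of 4 against 4 arrays cannot go below p = 0.0286 (2-sided). That smallest p, which was 0.0714 after Benjamini-Hochberg adjustment over the 15, was found for magnocellular markers (mean difference 0.67), oligodendrocyte (-0.64), meningeal (-0.66), blood (-0.59), microglial (-0.29) and GABAergic neuron markers (-0.35). The magnocellular list holds members of the response itself, and also Avp and Oxt, on whose values array 5 was left out. Its difference is therefore a description. Of its 10 genes 4 rose (Th, Caprin2, Calb2 and Pdyn). Blood had 1 of 3 markers called lower, the erythroid gene Alas2 (-0.88), and astrocytes 1 of 16, Gjb6. The mean differences were 0.04 for endothelium, 0.01 for mural cells and 0.07 for choroid plexus and ependyma (exact permutation p = 0.486, 0.943 and 0.600), with none called. None of the markers was listed at 0. The part that the amount of meninges, myelin or blood in a pool has in any of the falls was not tested. Array 5 stood above all controls for the oligodendrocyte (12.07), blood (12.04), endothelial (11.43), choroid plexus (11.26) and microglial (10.52) lists. It also did so for mural (9.88), oligodendrocyte precursor (9.61) and, narrowly, cortical and amygdalar neuron markers (8.70 against at most 8.68). It lay far below all controls for the magnocellular list (8.52 against 11.41 to 11.52). The magnocellular mean includes Avp and Oxt, so this low value restates in part why the array was left out.

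**Figure D4:**
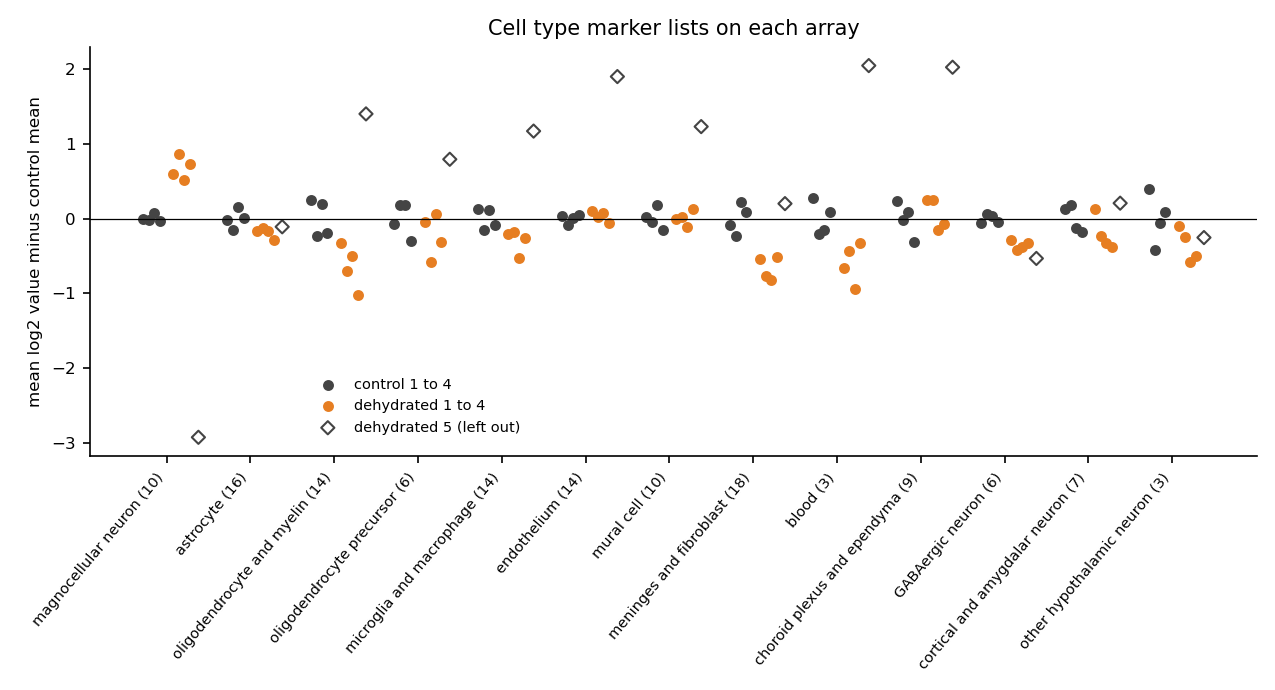
Mean log2 value of 13 cell type marker lists on each array, minus the mean of the control arrays (number of markers tested in brackets). Dark points are control arrays 1 to 4, orange points dehydrated arrays 1 to 4 and open diamonds the left-out dehydrated array 5. Dehydrated arrays 1 to 4 lie above the controls for magnocellular markers and below them for oligodendrocyte, microglial, meningeal, blood and GABAergic markers, while endothelial and mural values overlap. The magnocellular list includes Avp and Oxt, on whose values array 5 was left out.

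The remaining large falls belong to no cell type list. Lin7b, a scaffold protein of synapses, read 125, 148, 116 and 112 on the control arrays and 83.3, 51.2, 51.6 and 64.9 on the dehydrated arrays (-0.94 ± 0.16, adjusted p = 0.0119) and held. Hpcal4, a neuronal calcium sensor, fell by 0.89 ± 0.18, and 1 other tested probe set of it gave -0.18. Adgrb2, an adhesion receptor of neurons, fell by 0.87 ± 0.16, and Serpinh1, the collagen chaperone, by 0.89 ± 0.20; neither held, and the probes of Serpinh1 can match several transcripts. Syncrip-ps2 read 313, 282, 261 and 262 on the control arrays and 138, 163, 112 and 183 on the dehydrated arrays (-0.90 ± 0.15) and held, but the annotation names a pseudogene, whose signal can come from the parent gene. The largest falls by fold were at low signal. Gzmm, granzyme M of cytotoxic lymphocytes, read 118, 128, 82.3 and 94.5 on the control arrays and 22.6, 6.27, 6.29 and 41.3 on the dehydrated arrays (-2.35 ± 0.37, adjusted p = 0.00838) and held. Boc, a coreceptor of hedgehog proteins, read 48.4, 49.9, 57.9 and 60.1 on the control arrays and 3.75, 4.65, 24.3 and 3.22 on the dehydrated arrays (-2.16 ± 0.34), and was too dim to be tested when any control array was left out. Car14 (-1.65), Actmap (-1.60) and Rhpn1 (-1.47) fell without holding. Gzmm, Boc, Car14, Actmap and Rhpn1 passed the filter on low signals only through the control arrays, so their falls are given as descriptions.

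The 3-day dehydration arrays of the series are 5 control and 5 dehydrated arrays of male Sprague Dawley rats aged 10 to 12 weeks, extracted with QIAzol and RNeasy columns, amplified with an Ambion kit and processed with GCOS per the submitters' processing notes. Each of them also held 5 rats. Sex, extraction, amplification and software change together between the sets and cannot be told apart. The 3' to 5' log2 ratio for Gapdh was 1.31 to 1.96 on the male arrays. On the female arrays it was 0.03 to 0.75, apart from 2.04 on control array 2. The part of this ratio in the differences between the sets was not tested. In males 1808 probe sets rose (8.32% of 21729) and 2038 fell (9.38%). Of the 382 female rises tested in males, 321 (84.0%) were called higher there, 366 had the same sign, and the median log2 fold change was 0.57 against 0.72 in females. Of the 259 female falls, 139 (53.7%) were called lower in males and 240 had the same sign, with medians of -0.33 and -0.68. The probe sets were picked by their female values, so the female medians carry that selection. Seen from the male set, the shared calls are 17.8% of its rises and 6.82% of its falls. No female fall was called higher in males, and 1 female rise was called lower, Sppl2a, an intramembrane protease (1.05 in females, -0.30 in males; adjusted p of the difference 0.0515).

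Crh rose by 3.16 and 3.22 on the log2 scale in females and males, Vgf by 1.71 and 1.74, Caprin2 by 1.71 and 1.72, Fos by 1.88 and 1.94, and Atf4 by 1.09 and 1.09. The SE of the difference was 0.22, 0.20, 0.20, 0.31 and 0.18, and none of these differences passed. Oacyl (3.19 and 2.07, adjusted p of the difference 0.0963) and Alk (1.49 and 0.92, 0.0972) were larger in females without passing. For myelin markers the median was -0.66 in females and -0.14 in males, with 5 and 1 of 14 called lower, but no member's difference was called (for Mag -0.92 and -0.15, adjusted p = 0.267; for Opalin -1.10 and 0.00, adjusted p = 0.153). Meningeal markers were low in both, at medians of -0.72 and -1.12, with 9 and 16 of 18 called lower.

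The test of the difference itself called 7 of 21729 probe sets, 4 with a higher female minus male value (0.0184%) and 3 with a lower one (0.0138%). Kif5c rose by 1.04 in females and was at -0.11 in males, a difference of 1.14 ± 0.15 (SE; adjusted p = 0.003). Znf740, a zinc finger protein, was at -1.08 and 0.31, a difference of -1.39 ± 0.24. Igf1 was at -0.20 in females, where it was not called, and -1.59 in males, a difference of 1.40 ± 0.24, and a second Igf1 probe set was at -0.85 and -2.03. Wbp4, a splicing factor, was at 0.52 and -0.54, a difference of 1.06 ± 0.17. The other 3 were N4bp1 and 2 probe sets with no gene name. N4bp1 read 4.90, 7.74, 8.76 and 7.67 on the female control arrays and 19.4, 30.9, 12.9 and 24.3 on the dehydrated ones, too dim to be tested there, and entered this test only through the male arrays, so its difference is a description. Between 1 and 55 probe sets were called when a female or male array was left out, the most without dehydrated female array 3, and 0 with array 5.

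**Figure D5:**
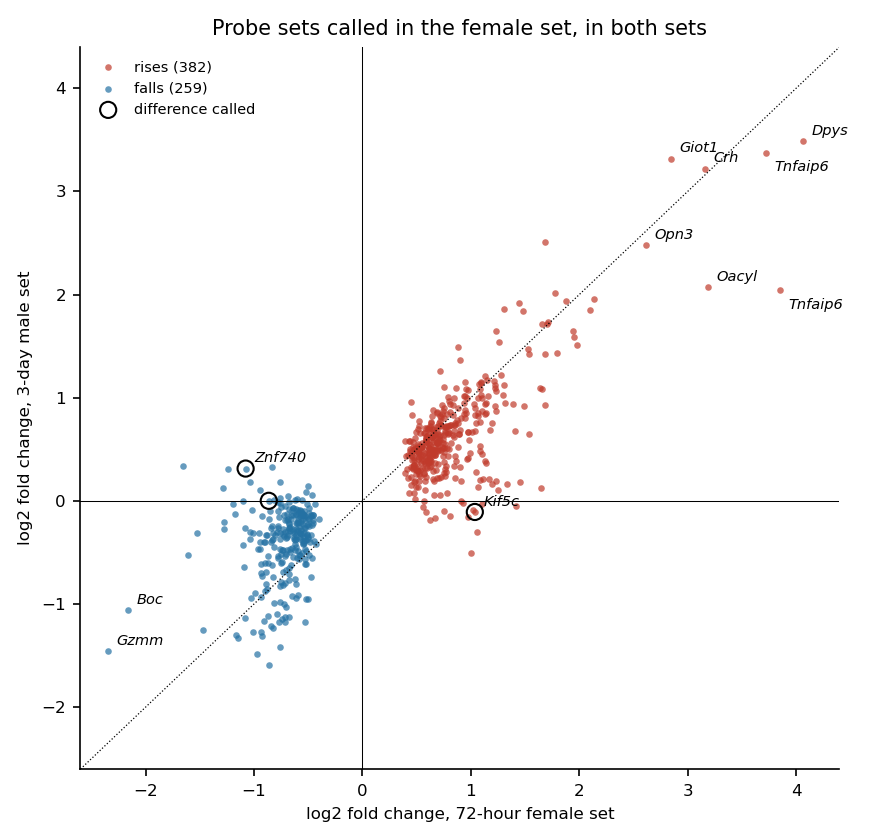
Log2 fold change in the 72-hour female set and in the 3-day male set for the 382 rises (red) and 259 falls (blue) called in females and tested in males. The dotted line marks equal change, and circles mark the 3 probe sets among them whose difference was called, of which Kif5c and Znf740 have a gene name. Of the rises 366 lie above 0 in males and of the falls 240 below 0.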

How the data were processed

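Female RNA was extracted with Trizol and labelled with biotin, per the labels' protocols. The authors deposited linear signal intensity per probe set of a rat array, made with MAS5 (female) or GCOS 1.2 (male) per the submitters' processing notes, with a 2% trimmed mean of about 100 per array, as computed from the values. The genome build behind the deposited values is not given in the sources used here. Of 31099 probe sets, 57 controls were left out. Intensities were scaled to a trimmed mean of 500, log2 was taken after adding 32, and 21729 probe sets with a mean above the 30th percentile were tested with limma 3.58.1 (R 4.3.3; lmFit and eBayes with a variance trend, Benjamini-Hochberg, 0.05). This pipeline was tested on simulated data. Platform annotation gave 20826 probe sets 1 gene symbol, 436 several and 9780 none, and lists took 1 probe set per gene, the most abundant. Named genes were the 15 largest rises and falls above the median level, the 6 largest at or below it, the called members of each list (or the smallest p), genes whose female and male response differed, and Avp and Oxt. A gene that this rule names is not reported here. The members and lists were chosen with earlier results of these data known. The number of arrays limits the precision. Figures were drawn with matplotlib 3.10.9 and tables with pandas 2.3.3 in Python 3.11.15. Alternatives covered scaling, offset, filter, array weights, the variance trend, array 5 and leaving out each array.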

Additional observations from a re-analysis of the deposited data

Results flagged for a closer look

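In 7 of the 94 groups of 4 arrays examined, 1 array lay far from the other 3; chance gives such a gap in about 1 in 20 groups. For Opn3 dehydrated array 4 read 1352, with the others from 1004 to 1015. For Rasd1 control array 4 read 261, with the others from 254.8 to 255.3. For Col1a2 dehydrated array 1 read 285, with the others from 240.2 to 246. For Dbp dehydrated array 2 read 90.1, with the others from 68.1 to 71.4. For Slc13a4 dehydrated array 4 read 165, with the others from 135 to 139.7. The groups of these 5 genes did not overlap, as in 380 of the 384 called rises and 255 of the 259 called falls. The 3' to 5' log2 ratio of the Gapdh control probe sets was 2.04 on control array 2, and that of beta-actin was 2.41 on dehydrated array 4.

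The dehydration response differed between the female and male sets, by limma's test of the difference, in 7 probe sets. The female minus male log2 difference was 1.14 for Kif5c, 1.06 for Wbp4, 1.40 for Igf1, 1.75 for N4bp1 and -1.39 for Znf740. N4bp1 was too dim to be tested in females alone and entered only through the male arrays, so its value is a description. The 2 probe sets without a gene name differed by -0.86 (-0.86 in females and 0.00 in males) and by -1.04 (-0.05 and 0.99).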

How the results depend on the processing

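The 384 rises and 259 falls stayed within 1.5 times their number under quantile normalization, offsets of 1 and 100, no filter and a filter at the 50th percentile. Median centring gave 114 falls. Array weights gave 828 rises and 881 falls, 1 fit with the male groups 1106 and 1216, and a fit without the variance trend 192 and 98. Adding array 5 left 1 rise and 0 falls, and gave Pdyn a log2 fold change of -0.163, its direction turned. Leaving out each array gave 152 to 457 rises and 51 to 429 falls. The 7 differences from males became 19 (quantile normalization), 12 (median centring), 11 (offset 100), 2 (no filter), 114 (array weights) and 0 (array 5 added), and 1 to 55 with an array left out. The cause was not tested. Of 106 named genes called, 97 kept their call under quantile normalization, 88 under median centring, 106 with offset 100 and 67 without the trend; with control array 3 left out 53 of 105 did. The median of the magnocellular marker list was 0.57, and -0.27 with array 5 added. That list includes Avp and Oxt, on whose values array 5 was left out. No paired analysis was possible because the control and dehydrated arrays share no replicate numbers in the labels. With 4 arrays a group, SEs of log2 fold changes had a median of 0.17.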

Other observations

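Some called genes outside the lists were picked after their values were seen and are given with limma's adjusted p. Azin1, which blocks the inhibitor of polyamine synthesis, rose by 1.15 ± 0.11 (SE) on the log2 scale (adjusted p = 0.000287), while a second Azin1 probe set was at 0.16 and did not pass. Selenot, a selenoprotein of the ER, rose by 1.13 ± 0.15 (adjusted p = 0.00237), and its second probe set was at -0.01. Nampt, the rate-limiting enzyme of NAD salvage, rose by 1.07 ± 0.12 (adjusted p = 0.00113). Ykt6, a SNARE of the secretory pathway, rose by 0.94 ± 0.16, and Emc7, of the ER membrane insertion complex, by 0.79 ± 0.12. In the male set these probe sets were called higher too, at 1.17 (Azin1), 0.94 (Selenot), 1.00 (Nampt), 1.02 (Ykt6) and 0.65 (Emc7).

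Other genes outside the lists, picked in the same way, fell. Wnt4 fell by 1.15 ± 0.20 (adjusted p = 0.0112), Ltbp1, which holds latent TGF-beta in the matrix, by 1.08 ± 0.15, Tgfbi by 0.83 ± 0.12, and Bmp6 by 0.81 ± 0.13. Their male values were -1.33, -1.14, -0.74 and -0.99, all called lower. Gpr37, a receptor abundant in oligodendrocytes, fell by 0.85 ± 0.15 in females and was at -0.10 in males, where it was not called. The mean log2 values of meningeal and myelin markers were also lower in the dehydrated females, and their part in these falls was not tested.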
